A study of Mus musculus with 28 samples.

Results

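The genes for the vitamin D receptor and its dimer partners, Vdr, Rxra, Rxrb and Rxrg, were examined as targets of the same receptors. They are 4 of the 22359 protein-coding genes of the GENCODE M1 annotation (mouse build mm9), and were chosen by name. Called peaks of VDR and of RXR were collected in each gene body with 100 kb on each side, and regions of 9 histone marks were collected over the gene body extended by 5 kb. Of 32520 peaks in the 8 factor lists, 42 lay near these genes and fell into 17 sites, a site being a set of overlapping peaks.

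All samples came from IDG-SW3, a mouse bone cell line that passes from osteoblast-like to osteocyte-like cells in osteogenic medium after interferon-gamma is withdrawn and the temperature raised. VDR and RXR were immunoprecipitated at day 35 after 3 hours of vehicle or of 100 nM 1,25(OH)2D3, the active form of vitamin D (1,25D3), with 2 biological replicates an arm. H3K4me1, H3K4me2, H3K4me3, H3K27Ac, H3K9Ac, H4K5Ac, H4K20me1, H3K36me3 and H3K9me3 were immunoprecipitated in untreated cells at day 3 and day 35, with 1 library per mark and day. The whole study is therefore 1 cell line, and a difference between days has no replicate check.

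VDR is a nuclear receptor that binds 1,25D3 and then contacts DNA with an RXR partner, most often at a pair of hexamers in direct repeat spaced by 3 bases, called DR3. RXR alpha, beta and gamma also pair with the retinoic acid, thyroid hormone, liver X and peroxisome proliferator receptors, which prefer other spacings (DR1 to DR5). In bone cells the VDR gene is known as a target of its own hormone through enhancers upstream of and within the gene.

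The VDR and RXR lists held 291 and 342 (VDR, vehicle), 1618 and 1333 (VDR, 1,25D3), 6875 and 4093 (RXR, vehicle), and 10333 and 7635 peaks (RXR, 1,25D3) in replicates 1 and 2. Sequencing depth is unknown, so the precision behind a missing peak is unknown too. The hormone check, the promoter of Cyp24a1, which encodes the enzyme that degrades 1,25D3, held a VDR peak in both 1,25D3 replicates (scores 13.8 and 10.7) and an RXR peak in both (6.8 and 8.1), and none with vehicle. Osteoblast markers carried H3K27Ac within 2 kb of a start in 6 of 6 genes at both days and osteocyte markers in 5 of 6 at both, Fgf23 being without. Of the markers of other cell types, H3K27Ac at day 35 was at 4 of 4 adipocyte, 3 of 4 chondrocyte (not Col2a1), 2 of 4 haematopoietic (not Ptprc or Itgam), 2 of 4 endothelial (not Cdh5 or Kdr) and 0 of 4 muscle genes, and adipocyte markers had 2 of 4 at day 3. H3K4me3 at day 35 was at 6 of 6 osteoblast, 3 of 6 osteocyte, 1 of 4 adipocyte and 2 of 4 chondrocyte genes. It was at 0 of 4 haematopoietic, 0 of 4 endothelial and 0 of 4 muscle genes. The shares of all genes with these marks near a start were not computed, so the counts single out no cell type. The part of other cell types in the day 35 values was not tested.

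The sequences below are those of the sites on which the results turn, from mm9, written 5′ to 3′ along the strand of the gene. In the Vdr intron, Vdr site 3 (replicate 1 VDR peak, chr15:97717980-97718268) held a DR4 with 1 mismatch, whose hexamers are in capitals, and Vdr site 4 (replicate 1 VDR peak, chr15:97709216-97709504) shows in capitals its 3 best DR3 pairs, each with 2 mismatches. For Vdr site 1, upstream of the gene, and for Rxra sites 2, 4 and 6, downstream of the gene, the stretch common to the peaks of all 4 RXR lists is shown. For Rxrb, site 2 is the part of the VDR promoter peaks that lies outside annotated exons, and site 3 is the RXR peak of vehicle replicate 1 (chr17:34173637-34173927), with the hexamers of a DR5 without mismatch in capitals.
Vdr site 3: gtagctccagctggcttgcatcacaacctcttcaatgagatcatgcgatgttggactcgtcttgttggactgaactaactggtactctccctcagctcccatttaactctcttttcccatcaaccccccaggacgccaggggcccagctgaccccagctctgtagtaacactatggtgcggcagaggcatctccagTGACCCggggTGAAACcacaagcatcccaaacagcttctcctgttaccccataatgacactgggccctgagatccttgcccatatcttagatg
Vdr site 4: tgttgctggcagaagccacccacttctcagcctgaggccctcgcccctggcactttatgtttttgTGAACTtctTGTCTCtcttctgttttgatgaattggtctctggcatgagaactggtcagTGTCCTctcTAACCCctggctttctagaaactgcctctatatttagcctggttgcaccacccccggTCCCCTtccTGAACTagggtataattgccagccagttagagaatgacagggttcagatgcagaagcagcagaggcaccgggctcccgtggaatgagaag
Vdr site 1 (chr15:97744811-97745013): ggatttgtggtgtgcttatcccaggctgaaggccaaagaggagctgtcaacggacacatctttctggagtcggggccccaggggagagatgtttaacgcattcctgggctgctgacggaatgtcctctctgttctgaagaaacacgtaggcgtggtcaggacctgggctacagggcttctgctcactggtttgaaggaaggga
Rxra site 2 (chr2:27629943-27630148): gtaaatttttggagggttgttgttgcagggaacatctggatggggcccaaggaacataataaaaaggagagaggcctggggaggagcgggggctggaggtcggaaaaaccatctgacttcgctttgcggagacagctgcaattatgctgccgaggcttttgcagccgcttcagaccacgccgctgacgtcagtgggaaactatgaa
Rxra site 4 (chr2:27641419-27641513): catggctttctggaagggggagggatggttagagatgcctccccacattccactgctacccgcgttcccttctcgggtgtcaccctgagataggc
Rxra site 6 (chr2:27714022-27714230): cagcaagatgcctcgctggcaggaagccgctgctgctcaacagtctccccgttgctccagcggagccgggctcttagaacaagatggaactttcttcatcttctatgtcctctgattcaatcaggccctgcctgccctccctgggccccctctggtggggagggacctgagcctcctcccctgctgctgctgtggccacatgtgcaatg
Rxrb site 2 (chr17:34168490-34168553): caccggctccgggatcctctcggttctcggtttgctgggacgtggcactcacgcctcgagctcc
Rxrb site 3: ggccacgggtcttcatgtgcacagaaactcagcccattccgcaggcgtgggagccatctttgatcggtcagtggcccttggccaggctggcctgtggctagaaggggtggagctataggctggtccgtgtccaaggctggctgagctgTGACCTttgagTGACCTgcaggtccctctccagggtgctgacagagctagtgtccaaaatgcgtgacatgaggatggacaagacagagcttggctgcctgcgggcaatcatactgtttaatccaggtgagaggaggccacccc

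Direct repeats were searched on both strands with at most 1 mismatch over both hexamers. The hexamers allowed were the consensus AGGTCA, its close variant GGGTCA, the variant AGTTCA often seen in vitamin D elements, and lastly the variant GGTTCA. None of the 17 sites held a DR3 by this rule, but only 5 of them held a VDR peak, while 14 held an RXR peak. A DR3 was in 34.7% and 35.6% of all VDR peaks of 1,25D3 replicates 1 and 2. In the RXR lists it was in 3.88% and 3.69% of peaks with vehicle and in 6.74% and 7.78% with 1,25D3. The rule is strict, since the Cyp24a1 promoter peak also had no DR3 below 2 mismatches. Its 2 best matches and the best at each VDR peak near Vdr are shown for comparison, hexamers in capitals.
Cyp24a1, 2 mismatches: GAGTCAgcgAGGTGA
Cyp24a1, 2 mismatches: GGTTCAgcgGGTGCG
Vdr site 2, 3 mismatches: GAGTCAgatGGGGAA
Vdr site 3, 2 mismatches: GGGTCAgctGGGCCC
Vdr site 4, 2 mismatches: AGTTCAggaAGGGGA
Vdr site 4, 2 mismatches: GGGTTAgagAGGACA
Vdr site 4, 2 mismatches: GAGACAagaAGTTCA
Of the 1618 VDR peaks of 1,25D3 replicate 1, 66.8% had a DR3 with 2 mismatches or fewer and 92.8% one with 3 or fewer. Vdr sites 3 and 4 met the limit of 2 mismatches and Vdr site 2 only that of 3. Nearly all peaks of the list met the limit of 3, and neither limit was tried on sequences outside VDR peaks. A match is thus a description of the letters only.

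At Vdr, RXR was called with and without hormone, and VDR was called in a single library. The RXR peak 3.87 kb upstream of the first annotated start (Vdr site 1, chr15:97744723-97745129) was in all 4 RXR lists, and an intronic RXR peak (Vdr site 3, chr15:97717874-97718268) was in 3 of 4. A Vdr site called in both RXR replicates was thus present in each arm, as at 30.5% of all genes with vehicle and 45.0% with 1,25D3. No VDR site near Vdr was called in both replicates of an arm, and 18% of genes had one with 1,25D3.

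VDR near Vdr was a matter of 1,25D3 replicate 1 alone, which had 3 peaks there, while 1,25D3 replicate 2 and both vehicle replicates had 0. In the replicate 1 list, 21.7% of genes had a VDR peak within 100 kb and 0.801% had 3 or more. Vdr site 2 lay 3.22 kb upstream of the first start (score 7.4, rank 1225 of 1618), next to the RXR site without overlapping it. Vdr site 3 scored 4.3, rank 1613 of 1618, and Vdr site 4 (chr15:97709137-97709504) scored 6.2, rank 1460 of 1618. All 3 were thus among the lower-scoring peaks of their list, and site 3 was among its last.

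In the RXR lists, Vdr site 1 scored 8.4 and 8.8 with vehicle and 8.4 and 10.8 with 1,25D3 (replicates 1 and 2). Vdr site 3 scored 6.6 in vehicle replicate 1, was not called in vehicle replicate 2, and scored 11.8 and 12.1 with 1,25D3, ranks 1944 of 10333 and 1698 of 7635. It was the Vdr site that both RXR replicates had with hormone and not both with vehicle. The scale of the score is not stated, so scores of different lists are given side by side and not compared.

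The DR4 of Vdr site 3 lay 33 bases from the centre of the RXR peak of 1,25D3 replicate 2 and 60 bases from that of the VDR peak. A DR4 by the same rule was in 6.73% and 8.34% of all RXR peaks of 1,25D3 replicates 1 and 2, and in 10% of VDR peaks of replicate 1. DR4 is the spacing that thyroid hormone and liver X receptors prefer. At Vdr site 4, 31.7 kb downstream of the first start, the RXR peak was called in 1,25D3 replicate 2 alone (6.4), so each factor was present there in 1 library and in different replicates. A single RXR peak of 1,25D3 replicate 1 (Vdr site 5, score 6.4) lay in an intron of Hdac7, a histone deacetylase gene, 98.3 kb downstream of the first Vdr start.

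**Figure D1:**
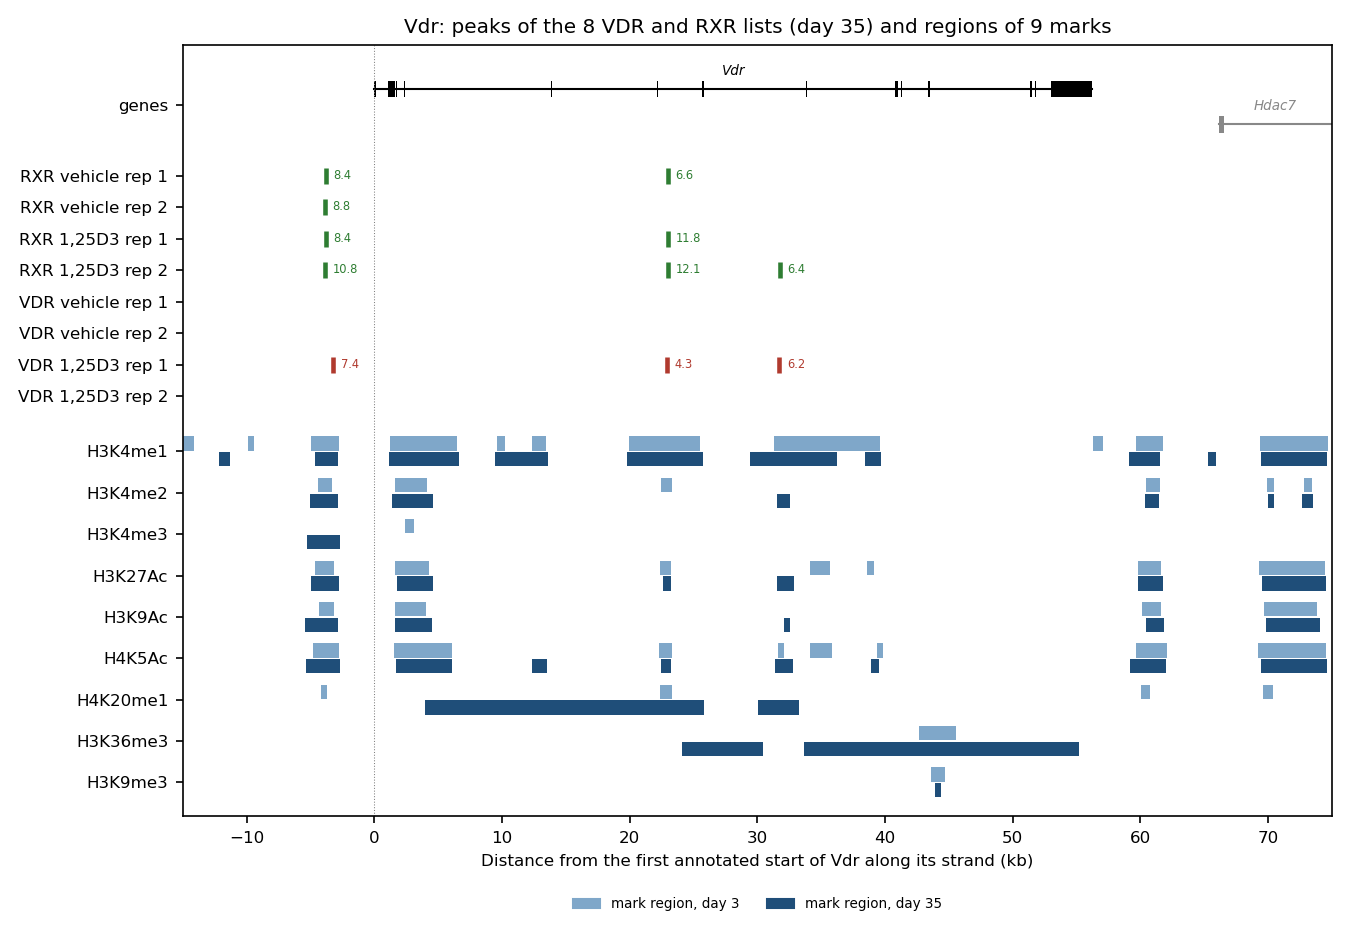
The x axis gives the distance from the first annotated Vdr start along its strand in kb; rows give the gene models, the peaks of each factor library (ticks, with the authors' score) and the regions of each mark at day 3 (light bars) and day 35 (dark bars). RXR ticks recur at 3.87 kb upstream in 4 of 4 libraries, the VDR ticks are all in 1,25D3 replicate 1, and the H4K20me1 and H3K36me3 bars inside the gene are long at day 35.

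At Rxra, which encodes RXR alpha, RXR was called downstream of the gene and VDR nowhere. No peak of any list lay within the gene body (chr2:27531960-27618477). Rxra sites 2, 4, 5 and 6, at 11.6, 23, 47.2 and 95.7 kb beyond the gene end, were each in all 4 RXR lists. With 1,25D3, 4 or more RXR sites of both replicates were near 5.13% of genes. No other protein-coding gene overlapped the 286.518 kb window, and by nearest start sites 2 and 4 belonged to Rxra and sites 5 and 6 to Col5a1, a fibrillar collagen gene, whose start was 76.3 kb and 27.8 kb away.

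Rxra site 2 scored 9.5 and 10.7 with vehicle and 9.1 and 7.6 with 1,25D3. Rxra site 4 scored 6.6 and 9.3 with vehicle and 11.4 and 10.8 with 1,25D3. Rxra site 5 scored 9.9 and 10.2 with vehicle and 8.4 and 8.5 with 1,25D3. All 3 sites were present in every RXR library, so the arms did not differ in whether they were called.

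Rxra site 6 scored 10.5 and 8.0 with vehicle and 8.7 and 11.9 with 1,25D3. Rxra site 3 (9.5 and 10.7) was called in replicate 1 of each arm and in neither replicate 2. Rxra site 1, 8.99 kb upstream of the gene, was called in 1,25D3 replicate 2 alone (6.8), and Rxra site 7 in 1,25D3 replicate 1 alone (7.3). The 4 sites shared by all lists held no complete hexamer in the stretches common to their peaks, nor did Vdr site 1. In windows of the same lengths at the centres of the 10333 RXR peaks of 1,25D3 replicate 1, 41.7% to 66% held at least 1 hexamer. At Rxra site 4, a DR4 with 1 mismatch was within the peak of vehicle replicate 2 only, 114 bases from its centre.

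**Figure D2:**
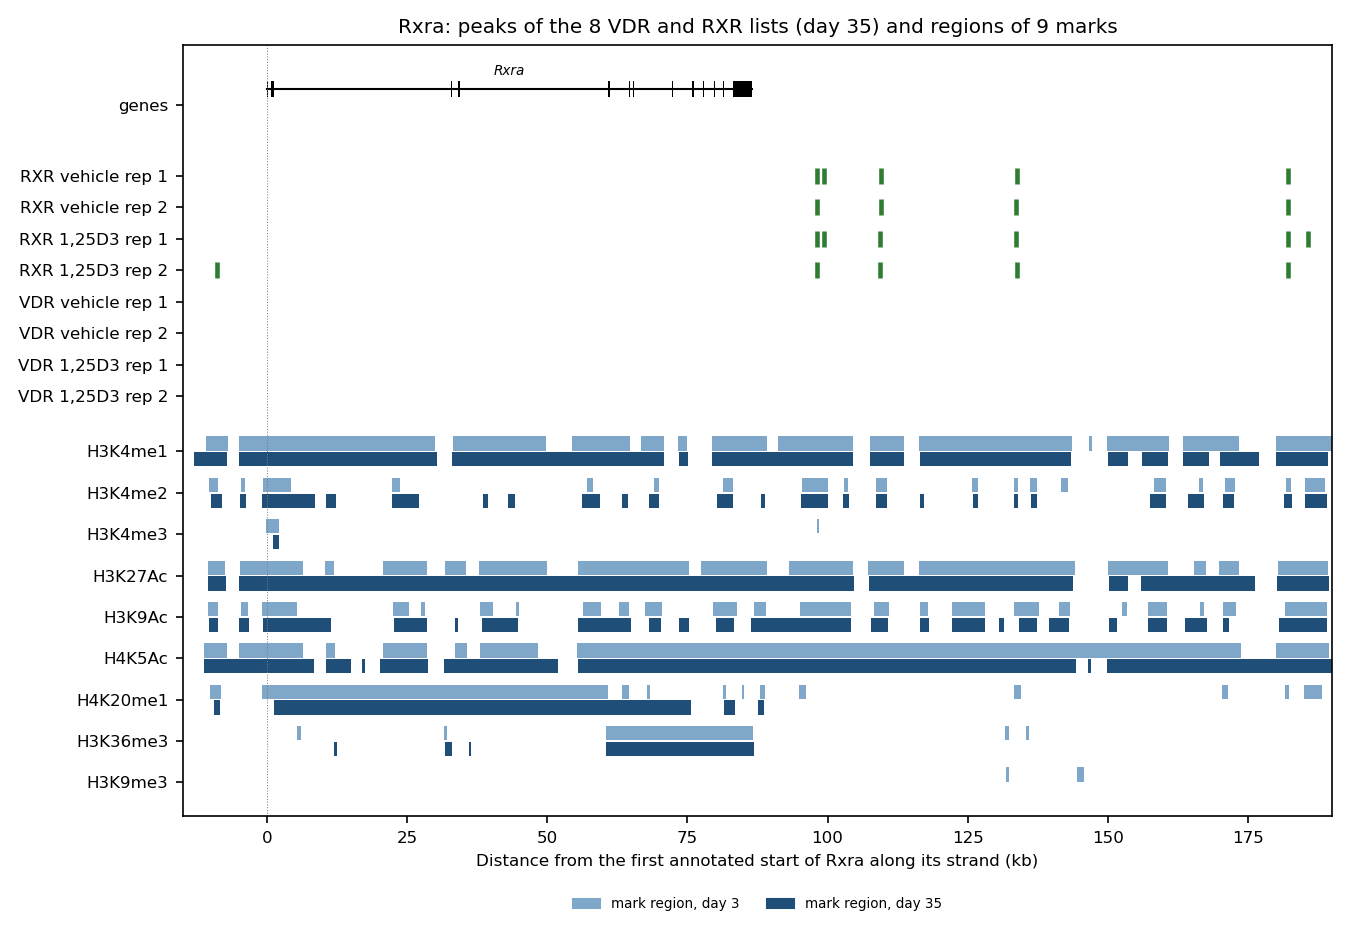
The x axis gives the distance from the first annotated Rxra start in kb; rows are as in the map of Vdr, without scores. The RXR ticks of all 4 libraries stand together at 4 places downstream of the gene, no VDR tick is present, and H3K27Ac at day 35 is 1 unbroken bar over the gene.

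At Rxrb, which encodes RXR beta, VDR was called at promoters and RXR in single replicates. Rxrb site 2 (chr17:34168238-34168574) was centred 0.351 kb upstream of the first Rxrb start and 0.083 kb downstream of the nearest start of Slc39a7, a zinc transporter gene on the other strand. It carried VDR in both 1,25D3 replicates (10.5, rank 760 of 1618, and 12.5, rank 624 of 1333). VDR was also called there in vehicle replicate 2 (12.6, rank 254 of 342), and RXR was not called. A VDR site of both 1,25D3 replicates within 1 kb of a start was found at 1.90% of genes. The peak cannot be assigned to one or the other of these genes from its position.

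Rxrb site 5, at the start of Brd2, a bromodomain gene 90.4 kb downstream of the first Rxrb start, showed the same set of libraries, again without RXR. It scored 7.4 (rank 1227 of 1618) and 9.8 (rank 849 of 1333) with 1,25D3. In vehicle replicate 2 it scored 6.3, rank 337 of 342. Its 3 peaks were thus in the lower-scoring part of their lists. Both sites are counted in the 2 VDR sites of both replicates near these genes with 1,25D3. With vehicle there were 0, since replicate 1 lacked them, beside 7.63% of genes with a VDR site of both vehicle replicates. Both sites were thus called without added hormone in 1 of 2 libraries, and a dependence on 1,25D3 was not shown.

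RXR near Rxrb was called in single replicates. Rxrb site 3 was placed by its centre in an Rxrb intron, 5.03 kb after the first start, so its peaks may also reach an exon. It had an RXR peak in replicate 1 of vehicle (6.0, rank 6195 of 6875) and of 1,25D3 (7.3, rank 6259 of 10333) and in neither replicate 2. Its DR5, the spacing typical of retinoic acid receptors, lay 11 and 6 bases from the centres of these peaks, and a DR1 with 1 mismatch shared one of its hexamers. A DR5 with at most 1 mismatch was in 9.03% and 7.72% of all peaks of those lists. Rxrb site 4, near the Brd2 start, was called in 1,25D3 replicate 1 (9.1), and Rxrb site 1, at the Vps52 and Rps18 starts 75.9 kb upstream, in 1,25D3 replicate 2 (7.6). Rps18 is a ribosomal protein gene and Vps52 a gene of retrograde vesicle transport, and 14 other protein-coding genes overlapped this window.

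**Figure D3:**
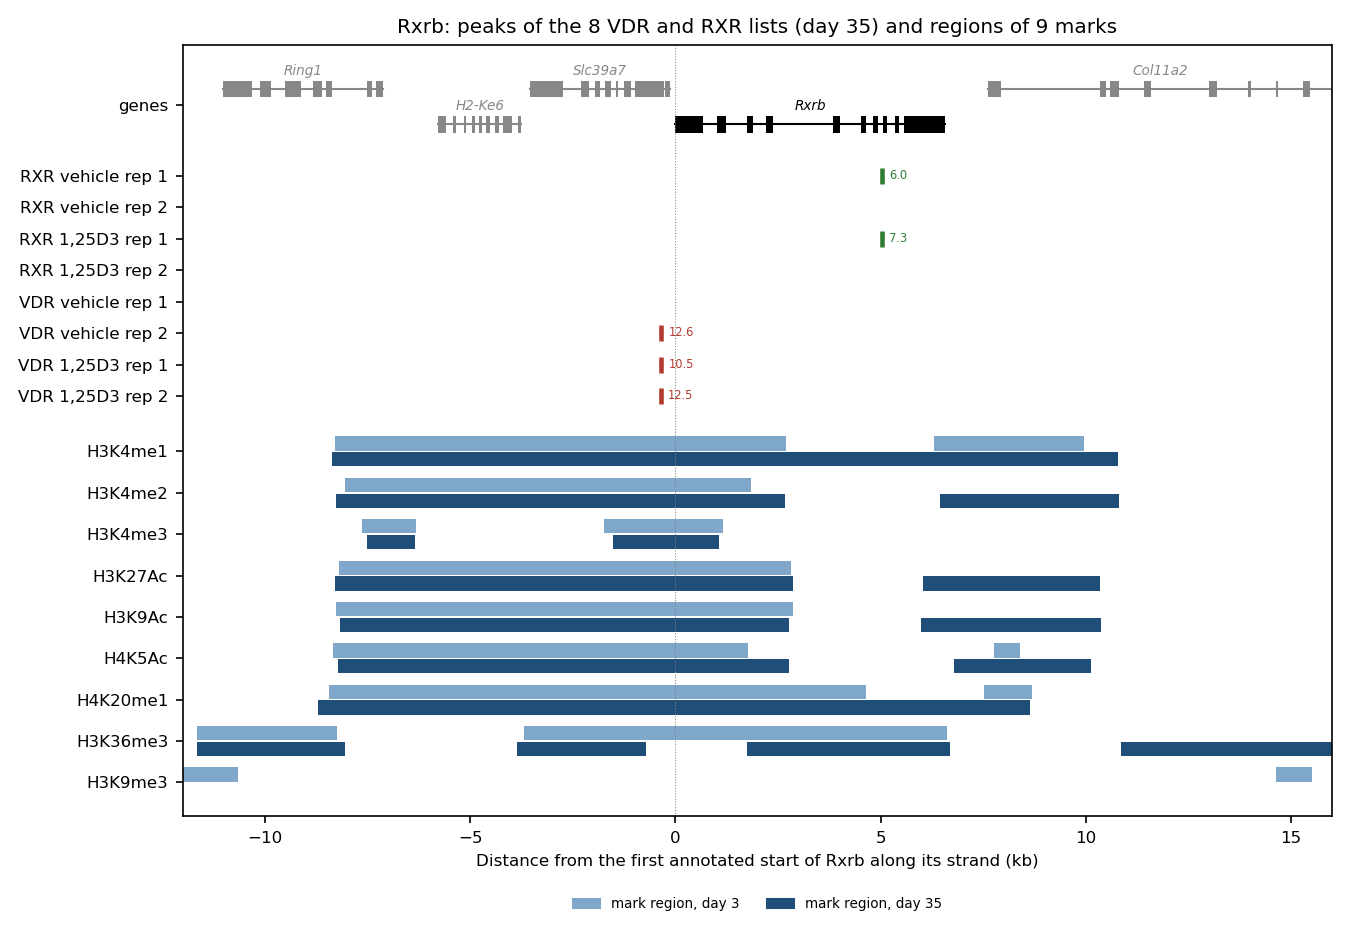
The x axis gives the distance from the first annotated Rxrb start in kb; rows are as in the map of Vdr, and ticks carry the authors' score. VDR ticks of 3 libraries stand at the shared Slc39a7 and Rxrb promoter, RXR ticks of both replicate 1 libraries stand inside the gene, and acetylation bars beyond the gene end are wide at day 35.

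Rxrg, which encodes RXR gamma, had no peak of any of the 8 lists within 100 kb. This was so for 37.6% of genes. An absent call does not show absent binding, since depth is not known.

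Over the 4 windows together, VDR lists held 0 and 2 peaks with vehicle and 5 and 2 with 1,25D3 (replicates 1 and 2). The means were 1 ± 1.41 and 3.5 ± 2.12 (SD, n = 2 each), a difference of 2.5 peaks (exact two-sided permutation p = 0.667). Replicate 2 held 2 VDR peaks in each arm. RXR lists held 8 and 5 peaks with vehicle and 11 and 9 with 1,25D3. Their means were 6.5 ± 2.12 and 10 ± 1.41 (SD, n = 2 each), and the groups did not overlap (difference 3.5, exact two-sided permutation p = 0.333). With 2 libraries against 2, the smallest p is 0.333, so neither comparison could reach 0.05. The VDR difference was 1 without 1,25D3 replicate 1, 1.5 without vehicle replicate 1 and 4 without 1,25D3 replicate 2, and the RXR difference was 2 without vehicle replicate 2. When the 4 lists of a factor were limited by score to the length of the shortest, the difference was -0.5 for VDR and -0.5 for RXR, the other way round. As a share of their lists, the peaks near these genes were 0.116% and 0.122% for RXR with vehicle, and 0.106% and 0.118% with 1,25D3. The larger number of RXR peaks with hormone thus went with longer lists. For VDR the shares were 0 and 0.585% with vehicle and 0.309% and 0.15% with 1,25D3, and its lists were also longer with hormone.

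Among the 42 peaks, scores ran from 4.3 to 12.6, and 22 were in the higher-scoring 50% of their list. Placed by their centres, 9 of the 17 sites were intergenic, 4 intronic and 4 within 1 kb of a start. H3K4me1 covered part of 17 of the 17 at day 35 and H3K27Ac of 16, the exception being Rxrb site 3. H3K9me3 was at 0 of the sites at both days. The shares of all listed peaks that carry these marks were not computed, so the counts describe the 17 sites only and show nothing particular to them. The histone libraries were from cells without added hormone, and in the day 3 cells neither factor was profiled.

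**Figure D4:**
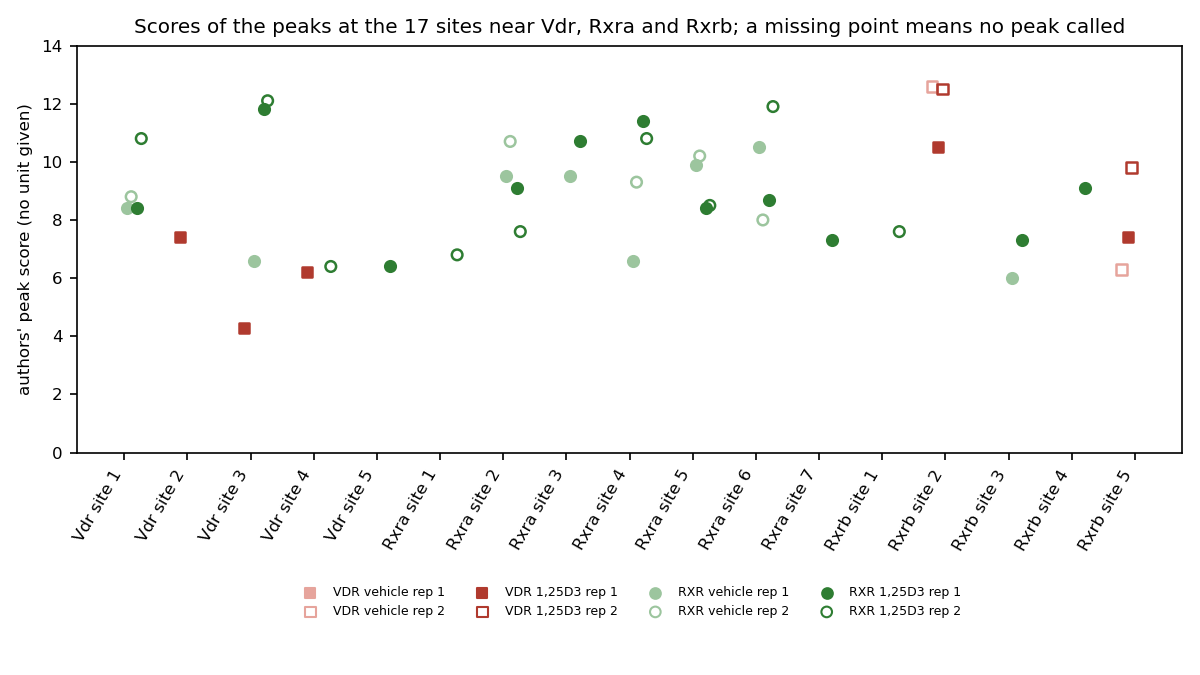
Each point is the authors' score of a peak (y axis, no unit given) at one of the 17 sites (x axis); squares are VDR, circles RXR, pale vehicle, dark 1,25D3, filled replicate 1, open replicate 2. Scores of different lists may not be on one scale; a reader should see which libraries have a point, with 5 sites called in all 4 RXR lists and the Vdr squares filled only.

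The marks changed differently at the 4 genes between day 3 and day 35. Coverage is the percent of the gene, extended by 5 kb at either end, that lay under called regions. It was over 10 points higher at day 35 in 13 of 36 pairs of gene and mark, beside 9.83% of all such pairs over all genes. By gene these were 2 pairs at Vdr, 5 at Rxra, 6 at Rxrb and 0 at Rxrg. It was over 10 points lower in 0 pairs, beside 5.45% of all pairs of gene and mark. Within 2 kb of the starts, 5 of the 13 pairs were again over 10 points higher, and 3 pairs of Rxrg were among the 9 pairs then higher. The differences are between single libraries and have no test.

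At Vdr the 2 marks that differed by over 10 points were marks of transcribed gene bodies. H3K36me3, deposited behind elongating polymerase, covered 4.40% at day 3 and 42.0% at day 35, a difference that 1.35% of genes reached. H4K20me1, also found over transcribed genes, covered 3.27% and 37.8%, and 2.63% of genes reached that difference. Over all genes, 10.7% were higher by over 10 points for H3K36me3 and 17.8% for H4K20me1. H3K4me3 covered 0.976% and 3.50%, a small difference that 0.622% of genes reached, and it came from upstream of the gene.

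The Vdr regions of these marks were short at day 3 and long at day 35. H3K36me3 had 1 region of 2.91 kb at day 3, and regions of 21.5 kb and 6.32 kb at day 35 that lay between 24.1 and 55.2 kb after the first start. H4K20me1 at day 35 covered the earlier part of the gene, with regions of 21.8 kb and 3.19 kb from 3.94 to 33.2 kb, so that the 2 marks alternated and partly overlapped between 24.1 and 33.2 kb. Acetylation over Vdr as a whole was near level, H3K27Ac covering 12.9% and 12.7%, H3K9Ac 7.01% and 9.58%, and H4K5Ac 18% and 19.2% at day 3 and day 35.

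Upstream of Vdr, 1 place stood out in the day 35 lists. H3K4me3, the mark of active promoters, had a region of 2.62 kb from -5.31 to -2.68 kb (chr15:97743745-97746367) with a score of 1578.5, rank 27 of 9360, and no region there at day 3. H3K9Ac had a region at the same place at both days, with rank 26873 of 51466 at day 3 (score 64.7) and rank 360 of 56355 at day 35 (score 2735.8). H3K27Ac there ranked 32226 of 67163 and 33040 of 67302, and H3K4me1 24741 of 91299 and 34501 of 100123, so these 2 marks were far from the top of their lists at both days. This region held Vdr sites 1 and 2.

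The nearest start of any annotated transcript of GENCODE M1, coding or not, was 2.68 kb from that H3K4me3 region, the first start of Vdr. Of the 100 highest-scoring H3K4me3 regions, 19 at day 35 and 2 at day 3 were over 2 kb from any annotated start. Over the whole lists the order was the other way, with 8.22% of regions at day 35 and 12.1% at day 3. The start of the Vdr-001 transcript, 2.32 kb after the first start, had its own H3K4me3 region at day 3 (score 32.3, rank 9702 of 11283) and none at day 35, while H3K27Ac, H3K9Ac and H3K4me2 regions spanned it at both days.

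At Rxra, 5 marks were over 10 points higher. H3K27Ac, the mark of active enhancers and promoters, covered 70.7% and 100%, H3K9Ac 29.2% and 50.2%, and H4K5Ac 72.3% and 86.3%. H3K4me2 covered 11.6% and 29.7%, and H4K20me1 67.8% and 80.1%. Within 2 kb of the Rxra starts H4K20me1 went the other way, covering 89.5% and 67.4%. The shares of all genes that were over 10 points higher were 17.8% for H3K27Ac, 7.11% for H3K9Ac, 13.4% for H4K5Ac and 9.19% for H3K4me2. H3K36me3 over Rxra was near level, at 28.5% and 29.7%.

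H3K27Ac at Rxra was called as 7 regions over the gene at day 3 and as 1 region of 109.8 kb at day 35, from -5.02 to 104.8 kb around the first start, rank 46 of 67302. That region ran past the gene end and held Rxra sites 2 and 3, both of which also had H3K27Ac at day 3. H4K5Ac already had a broad region there at day 3 (118.4 kb, rank 37 of 68494), beginning inside the gene and running over sites 2 to 5, and one of 88.8 kb at day 35 (rank 50 of 72819). H3K4me3 near the first Rxra start was 2.38 kb wide at day 3 and 1.01 kb at day 35.

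At Rxrb, 6 marks were over 10 points higher. H3K4me1 covered 68.5% and 95.2% and H3K4me2 41.3% and 72.6%, and a difference as large was found at 0.868% and 0.385% of genes. H3K27Ac covered 47.2% and 73.4%, H3K9Ac 47.4% and 73.3%, H4K5Ac 44.7% and 67.0%, and H4K20me1 65.2% and 82.2%. For H3K4me1, 8.06% of all genes were over 10 points higher.

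The added H3K4me2, H3K27Ac and H3K9Ac coverage at Rxrb came mostly from regions that began near the gene end. H3K27Ac had a region from 6.04 to 10.3 kb after the first start at day 35 and none there at day 3, and H3K9Ac likewise from 6.00 to 10.4 kb. H3K4me2 too had a region from 6.45 to 10.8 kb at day 35 and none there at day 3. These regions span the end of Rxrb and the start of Col11a2, a collagen gene, so they cannot be assigned to Rxrb alone. Over the gene body without flanks, H3K27Ac covered 43.0% and 51.8% and H3K9Ac 43.5% and 51.1%, differences under 10 points. H3K4me1 differed more there than with the flanks, at 45.3% and 100%. H3K36me3 went the other way, covering 100% of the gene body at day 3 and 73.6% at day 35, with the gap at the promoter end. With 20 kb on each side it was over 10 points higher at day 35, and with 100 kb it covered 32.2% and 40.5%, so its direction depended on the window.

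H3K27Ac, H3K9Ac and H4K5Ac were all over 10 points higher at Rxra and Rxrb, and at 3.01% of all genes. At neither Vdr nor Rxrg was this so. H3K4me3 was over 10 points higher at none of the 4 genes and at 0.157% of all genes.

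Rxrg was nearly bare of active marks. H3K4me3, H4K20me1 and H3K36me3 covered 0 at both days, and H3K27Ac 0 at day 3 and 1.24% at day 35. H3K9me3, the mark of silent chromatin, covered 1.60% and 9.28%, a difference under 10 points, and 4.20% of genes exceeded 10 points. Most of this H3K9me3 lay in the flanks, since over the gene body alone it covered 0 and 1.21%. Most of the active marks that appeared at day 35 stood at an inner start of Rxrg, that of the Rxrg-004 transcript 19.9 kb after the first. There H3K4me2 (score 151.3), H3K9Ac (40.2), H3K4me1 (29.0) and H3K27Ac (12.2) each had 1 region at day 35 and none at day 3. At the first start, H3K4me2 alone had a region at day 35 (0.631 kb, score 21.3) and none at day 3. Within 2 kb of the Rxrg starts, coverage was 0 at day 3 and at day 35 22.3% for H3K4me2, 13.7% for H3K4me1 and 12.4% for H3K9Ac, all over 10 points higher.

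**Figure D5:**
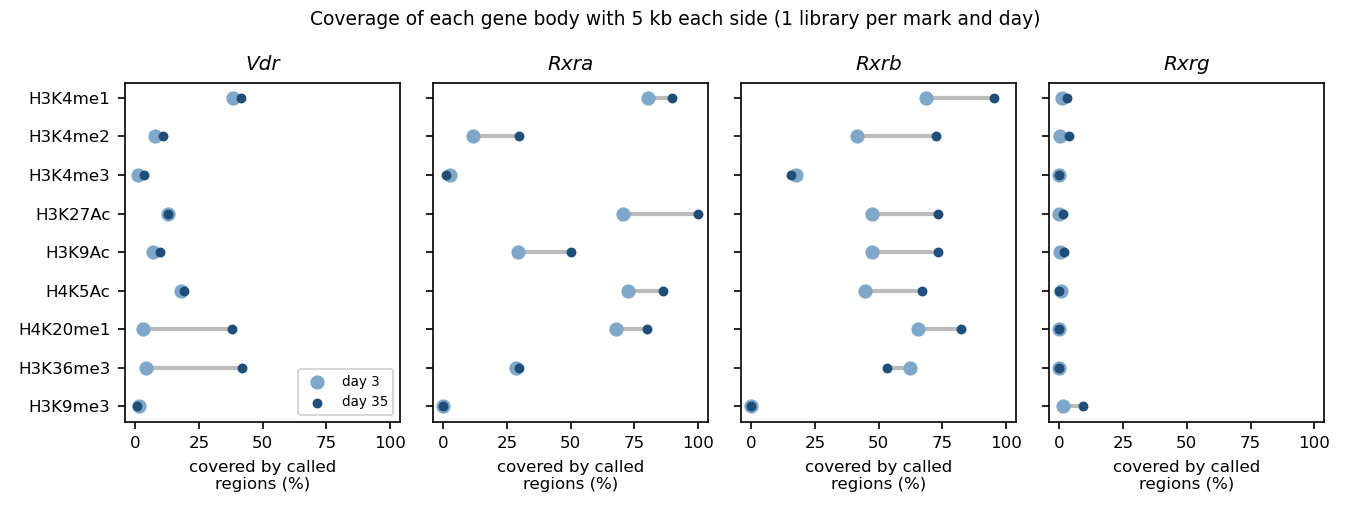
Each panel is a gene; the x axis gives coverage in percent (gene extended by 5 kb at either end), rows are marks, large pale points are day 3 and small dark points day 35 (1 library each). Long bars appear at Vdr for H4K20me1 and H3K36me3, at Rxra and Rxrb for the acetyl marks, and none at Rxrg.

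By their 18 coverage values, Rxra and Rxrb were 17.8 points apart (mean absolute difference), whereas the median distance over all genes was 37.4 points from Rxra and 39.8 from Rxrb. The difference was 14.8 between Vdr and Rxrg, near the median of 15.1 between Vdr and all genes, 32.9 between Vdr and Rxra and 51.4 between Rxrb and Rxrg. The genes most like Vdr were Pdzd2 (3.65 points), Arrb1 (4) and Specc1 (4.08). All 3 had more H3K36me3 at day 35 than at day 3, but H3K36me3 was among the 18 values used to pick them. Their likeness to Vdr in this mark is therefore not a separate result. In Arrb1, which encodes beta-arrestin, H3K36me3 covered 1.23% and 27.6%. Most like Rxra were Cuedc1 (6.74), Sept9 (7.1) and Cmtm4 (7.18), and most like Rxrb were Pygo2 (6.88), a Wnt pathway gene, Surf4 (7.55) and Serp1 (7.56). Most like Rxrg were Chgb (0.449), Frmpd1 (0.502) and Zscan18 (0.508), but 6778 genes lay within 3 points of Rxrg, so its likeness to any one of them is not particular.

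Other genes of the pathway were read from lists in the same windows. Of 15 receptors that pair with RXR or act as its relatives, 12 had an RXR site of both replicates with 1,25D3 and 7 with vehicle, beside 45.0% and 30.5% of all genes. VDR sites of both replicates were near 4 of the 15 with 1,25D3 and 2 with vehicle, beside 18% and 7.63% of all genes. The median H3K27Ac difference of these receptors was 3.57 points and that of all genes 0. Nr4a1, an orphan receptor, was the only one of the 15 with all 3 acetyl marks over 10 points higher, beside 3.01% of all genes. Its H3K27Ac coverage was 37.0% and 67.4%. Pparg, the adipocyte receptor, had 4 RXR sites with 1,25D3, and H3K27Ac covered 40.1% at day 3 and 18.8% at day 35. H3K27Ac covered 33.7% and 54.3% of Ppard, 74.8% and 90.0% of Thra and 29.7% and 19.5% of Nr1i3.

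Of 12 coactivators and corepressors, 6 had an RXR site in each arm and 3 a VDR site with 1,25D3, beside 30.5% (vehicle) and 45.0% (1,25D3) of all genes for RXR and 18% for VDR, and none had all 3 acetyl marks higher or lower. Their median H3K27Ac difference was 7.89 points. H3K27Ac covered 35.1% and 46.9% of Smarca4, 44.6% and 54.8% of Baz1b, 18.1% and 23.7% of Ncor1 and 13.3% and 16.7% of Nrip1.

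Of 12 genes of retinoid supply and removal, which make, bind or degrade ligands of the RXR partners, 11 had an RXR site with vehicle and 10 with 1,25D3, beside 30.5% and 45.0% of all genes. VDR sites with 1,25D3 were near 4 of the 12, beside 18% of genes. Their median H3K27Ac difference was 15 points, and 2 of the 12 had all 3 acetyl marks higher, beside 3.01% of genes. Dhrs3, a retinal reductase gene, had 12 RXR sites with 1,25D3, and H3K27Ac covered 35.1% and 55.9% of it. H3K27Ac covered 14.8% and 41.9% of Rdh10, 77.3% and 100% of Crabp2, 27.9% and 50.3% of Crabp1 and 3.12% and 22.7% of Aldh1a2. At Crabp1 the other acetyl marks went the other way, H3K9Ac covering 21.7% and 14.8% and H4K5Ac 76.5% and 46.0%. An RXR site of both replicates was near Crabp1 with vehicle and not with 1,25D3.

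Of 8 genes of vitamin D supply and removal, 1 had a VDR site with 1,25D3 (Cyp24a1, with 2) and 4 had an RXR site with 1,25D3 (Cyp24a1, Cyp27a1, Lrp2 and Cubn), beside 18% and 45.0% of all genes. Their median H3K27Ac difference was 0. H3K27Ac covered 0 of Cyp24a1 at both days, 5.32% and 4.56% of Cyp27a1, 4.29% and 3.30% of Lrp2 and 27% and 28% of Cubn. In all 4 lists together, 0 genes had all 3 acetyl marks lower, beside 0.975% of all genes.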

How the data were processed

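VDR and RXR (8 libraries) and 9 histone marks (18 libraries) were profiled by chromatin immunoprecipitation with sequencing in IDG-SW3 cells, and 26 of 28 samples had a list used here, the 2 inputs being not analysed here. Per the submitters' processing notes, the authors used Bowtie and HOMER with build mm9; no version or parameter is given in the sources used here. The deposited lists give 1 score per region, the authors' own, with a scale that is not stated, called separately for each sample. Replicate 2 factor libraries carry an index tag in their file labels that replicate 1 libraries lack, and each arm holds 1 of each.

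Genes, exons and starts came from GENCODE M1 (mm9); coordinates are 1-based. A site of both replicates was a pair of peaks overlapping by at least 1 bp. Numbers of peaks, 2 libraries against 2, were tested by exact permutation (two-sided). Coverage used the gene extended by 5 kb at either end, and a change was a difference over 10 points. The members and gene lists were chosen with earlier results of these data known. Named genes were the 4 members, the nearest gene of each peak, the 3 genes most alike in coverage, Cyp24a1, and, per list, up to 5 genes with a VDR or RXR site of both replicates or with all 3 acetyl marks changed, by the size of the H3K27Ac difference; cell type markers are named by list. Some genes that this rule names are not reported here. RefSeq promoters (GRCm38.p6) of all 4 members matched mm9 exactly and are not printed. Interval code was tested on simulated regions. Python 3.11.15, numpy 2.4.6, pysam 0.24.0 and matplotlib 3.10.9 were used. Alternatives were other windows, overlaps, score limits, list lengths, regions and left-out libraries.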

Additional observations from a re-analysis of the deposited data

How the results depend on the processing

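Of 64 alternative values for 8 results, 48 kept their direction or, for counts of sites and pairs, stayed within 1.5 times the value reported. VDR sites of both replicates with 1,25D3 (2) numbered 1 within 50 kb, 1 within 10 kb and 1 in the higher-scoring 50% of each list, and 2 to 5 in a single replicate. With vehicle (0) a single replicate gave 0 to 2. RXR sites with 1,25D3 (6) numbered 2 within 10 kb and 9 to 11 in a single replicate; with vehicle (5) they numbered 1 within 10 kb, 2 in the higher-scoring 50% of each list and 5 to 8 in a single replicate. The difference in peaks, 1,25D3 minus vehicle, was reversed for both factors at equal list length (-0.5 each, by construction fewer peaks), and without 1 or 2 libraries it was 0 to 5 for VDR, 0 without replicate 1, and 2 to 5 for RXR. With the replicate block it was 2.5 for VDR (exact permutation p = 1) and 3.5 for RXR (exact permutation p = 0.5, the smallest this block allows); same-numbered libraries shared a number only, with deviations correlated at 0.0761 and 0.0275 over regions. Pairs higher at day 35 (13) fell to 2 with 100 kb each side, both among the 13. Pairs lower (0) became 3 within 2 kb of the starts (Rxra H3K4me3 and H4K20me1, Rxrb H3K36me3) and 1 over the gene body alone (Rxrb H3K36me3). Depth is unknown, so a missing peak limits nothing about binding.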
